A study of Homo sapiens with 6 samples.

Results

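The insulin-like growth factor (IGF) axis was examined in 12Z cells through 10 genes named for their role in it. These were the binding protein genes IGFBP3, IGFBP4, IGFBP5, IGFBP6 and IGFBP7, the protease gene PAPPA, the stanniocalcin genes STC1 and STC2, and the receptor genes IGF1R and IGF2R. They are 10 of the 60660 genes counted. The ligand gene IGF2 was looked up beside them. 12Z is an immortal line of epithelial cells that came from endometriosis, the growth of endometrium-like tissue outside the uterus. RNA-sequencing compared 3 control libraries, from cells given a non-targeting siRNA, with 3 knockdown libraries, from cells given 10 nM of siRNA LINC01133a, directed against the long noncoding RNA LINC01133. Both groups received an siRNA with the same lipid reagent and were lysed after 72 h. The study describes 3 biological replicates per group without saying which step was repeated, so p-values measure the spread between these libraries. A single cell line and a single siRNA were sequenced, so that loss of LINC01133 and other effects of this siRNA cannot be told apart.

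IGF1 and IGF2 signal through IGF1R, a receptor tyrosine kinase, while IGF2R binds IGF2 without such a kinase and carries it to the lysosome. In body fluids most IGF is held by the IGF binding proteins, which keep it from the receptor until it is released. PAPPA is a secreted metalloprotease that cuts IGFBP4, with the help of bound IGF, and also IGFBP5, which frees the ligand near the cell surface. STC1 and STC2 are secreted glycoproteins that inhibit PAPPA. In the endometrium, IGF signalling takes part in the growth of the tissue over the menstrual cycle, and IGF binding proteins are prominent products of its stromal cells.

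IGFBP4, a substrate of PAPPA, and PAPPA itself moved in opposite directions and changed most of the 10 genes, so the promoters of IGFBP4 and PAPPA are shown. Both come from RefSeq on GRCh38.p14 and run from 250 bases before to 50 bases after the start of the gene. Capitals mark matches, on either strand, to 6 searched words. The words of common promoter elements were TATAAA for the TATA box, GGGCGG for the GC box bound by Sp1, and CCAAT for the box named after it. The words for inducible factors were TGANTCA for AP-1, TGACGTCA for the cyclic AMP response element and GTAAACA for FOXO factors.
IGFBP4 promoter, chr17:40443200-40443499, plus strand: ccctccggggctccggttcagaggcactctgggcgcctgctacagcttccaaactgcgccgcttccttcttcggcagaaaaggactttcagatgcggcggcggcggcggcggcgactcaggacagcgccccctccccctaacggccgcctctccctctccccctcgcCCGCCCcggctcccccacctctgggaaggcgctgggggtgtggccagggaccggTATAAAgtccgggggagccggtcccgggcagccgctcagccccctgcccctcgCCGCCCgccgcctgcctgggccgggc
PAPPA promoter, chr9:116153541-116153840, plus strand: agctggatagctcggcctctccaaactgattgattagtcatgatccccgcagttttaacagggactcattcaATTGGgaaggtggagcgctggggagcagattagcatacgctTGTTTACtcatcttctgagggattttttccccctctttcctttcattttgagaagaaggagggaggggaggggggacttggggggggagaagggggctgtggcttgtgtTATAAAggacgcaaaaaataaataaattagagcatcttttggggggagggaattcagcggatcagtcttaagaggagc

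TATAAA stood 29 bases before the start of IGFBP4 and 28 bases before that of PAPPA, against 11.5% of 35116 promoters of this length that held the word anywhere. IGFBP4 also held GGGCGG at positions -83 and 25 from the start, a word found in 45.0% of promoters. The PAPPA window held CCAAT at -178 (in 34.6% of promoters) and GTAAACA at -137 (in 3.4%). Promoters of 8 of the 10 genes were matched in the table. GGGCGG occurred in 5 of these 8, with 6 matches in IGF2R, 2 each in IGF1R, IGFBP3 and IGFBP4 and 1 in IGFBP6. CCAAT occurred in 2 of the 8, PAPPA and STC2 (at -100), and GTAAACA in 2, PAPPA and IGFBP6 (at -186). None of the 8 windows held TGANTCA or TGACGTCA. A match is a description of the letters and not a bound site.

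The strands of siRNA LINC01133a are shown because short RNAs can also lower transcripts that pair with bases 2 to 8 of a strand, the seed, which is in capitals.
siRNA guide strand: uCCAUUCUcagguaacuucaa
siRNA passenger strand: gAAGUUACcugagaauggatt

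The word that pairs with the guide seed, AGAATGG, occurred in the 3′ UTR of 3 of the 10 genes, against 17.1% of 12538 tested genes with an annotated 3′ UTR. None of the 3 had the extended match with a further A, which 5.8% of these genes had. The sites lay in IGFBP5, PAPPA and IGF2R, and the coordinates on GRCh38 (GENCODE v44) are those of the capitals.
IGFBP5 site, chr2:216673075-216673081, minus strand: ccggcccAGAATGGgaacctca
PAPPA site, chr9:116397332-116397338, plus strand: caatctgAGAATGGcttaggat
IGF2R site, chr6:160108247-160108253, plus strand: ttctgtgAGAATGGggtcaacg
IGF2R site, chr6:160110402-160110408, plus strand: acctgccAGAATGGctactgtc

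The word that pairs with the passenger seed, GTAACTT, was in the 3′ UTR of IGFBP5, PAPPA and STC1, against 13.6% of tested genes, and had the extended form in PAPPA and STC1 (2 of the 10, against 3.4% of tested genes). The 3′ UTRs of IGFBP3, IGFBP4, IGFBP6, IGFBP7, STC2 and IGF1R held neither word. The part of seed matches in the results below was not tested.

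Libraries held 27742562 to 37551194 counts on genes. Of 60660 genes, 15155 were tested, among them all 10 of the axis. A gene was called when edgeR's quasi-likelihood test gave a Benjamini-Hochberg adjusted p under 0.05 and its fold change was over 1.5 in either direction. Values are TMM-normalised counts, that is, counts scaled by library size and composition, and log2 fold changes are knockdown against control. Control replicate 2 stood apart, with a chi-square per degree of freedom of 10.7 and 11.8 against the other control libraries, which differed from each other by 3.47. Knockdown libraries differed by 2.08 to 3.26. Genes with a transcript of at least 10 kb lay a median of 0.12 above their group mean on the log2 scale in control replicate 2, against -0.074 to 0.021 in the other 5 libraries. PAPPA, IGF1R and IGF2R have transcripts of this length, and their values are therefore also given without that library.

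The keratin genes KRT8, KRT18 and KRT19, markers of epithelial cells, each had 21589 to 106603 normalised counts in every library, while EPCAM (13.6 ± 4.33 and 16.9 ± 5.19 normalised counts in control and knockdown cells) and PAX8 (77.5 ± 4.65 and 79.0 ± 6.45) were low (SD, n = 3). The 8 epithelial markers summed to 200703 to 211713 normalised counts in control and 128533 to 134425 in knockdown libraries. Of these 8, 4 (KRT7, KRT8, KRT19 and CDH1) were called lower. Of all genes tested, 6.43% were called lower and 5.30% higher. KRT7 was 1.502-fold lower, at the cutoff of 1.5. The study reports loss of CDH1 by qRT-PCR and Western blot. It also states that lower KRT7 and KRT19 could not be established in its follow-up measurements. All 8 stromal fibroblast markers were also present, summing to 164453 to 183292 in control and 143670 to 151525 in knockdown libraries, and PDGFRA was called lower. Of 5 endothelial markers, which summed to 1751 to 1794 and 1172 to 1241, PECAM1 had 0 to 3 counts per library, CDH5 was called higher (log2 fold change 1.45), and TIE1 (-1.58) and KDR (-0.68), which made up most of the sum, were called lower. Of 5 leukocyte markers, summing to 1618 to 1824 and 847 to 907, nearly all was CD14, which was called lower (-0.98), with CD3E at 0 in every library. The part of these differences in the results on the IGF axis was not tested, and in bulk RNA fewer cells of a kind and less RNA per cell cannot be told apart.

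LINC01133 (ENSG00000224259.7, chromosome 1, 159958035 to 159984750 on GRCh38, the build of all coordinates here) had 813, 818 and 837 normalised counts in control libraries and 130, 131 and 138 in knockdown libraries. The groups were far apart. Its log2 fold change was -2.63 (SE 0.070, adjusted p = 3.5e-11), which leaves 16.1% of the control level.

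The 10 genes of the IGF axis were chosen with earlier results of these data known, so the shares given here only describe them. Of the 10, 5 were called, against 11.7% of all genes tested. PAPPA and IGFBP5 rose (2 genes, against 5.30% of genes called higher), and IGFBP3, IGFBP4 and STC1 fell (3 genes, against 6.43% called lower). With the adjusted p alone, 8 of the 10 passed, 3 higher and 5 lower, against 48.3% of all genes. The 2 groups did not overlap for 7 of the 10 genes, against 57.3% of all genes. The median log2 fold change over the 10 genes was -0.14, and that over all genes tested was 0.0032.

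**Figure D1:**
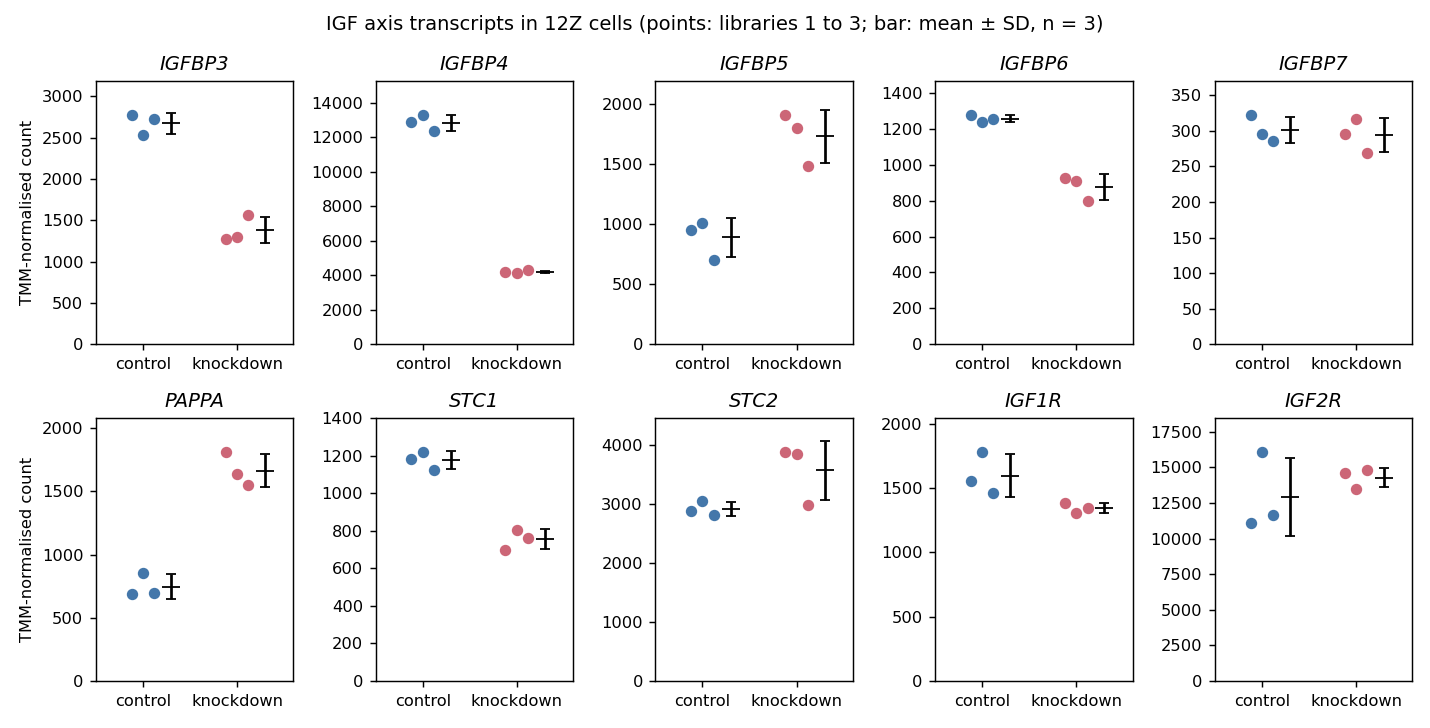
TMM-normalised counts (y axes, from 0) of the 10 IGF axis genes in control and knockdown cells, with 1 point per library in the order of the replicate numbers and the mean ± SD (n = 3) beside the points. IGFBP4 fell from about 12848 to 4206 and PAPPA rose from 747 to 1666, while the points of IGFBP7, STC2 and IGF2R overlap between groups.

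IGFBP4, a carrier that mostly restrains IGF action, was the most abundant transcript of the axis per length and the one that changed most. The gene (ENSG00000141753.7) spans 40443450 to 40457725 on chromosome 17, plus strand. Its normalised counts were 12901, 13278 and 12366 in control libraries and 4187, 4150 and 4281 in knockdown libraries. Every knockdown library lay at about the same level, well under every control library. The mean was 12848 ± 458 in control and 4206 ± 67.1 in knockdown cells (SD, n = 3), and the log2 fold change was -1.61 (SE 0.039, 95% interval -1.69 to -1.53, adjusted p = 1.3e-11). This is 3.05-fold lower, or 32.7% of the control level.

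IGFBP3, the main carrier of IGFs in serum, also fell, by less. The gene (ENSG00000146674.15) spans 45912245 to 45921874 on chromosome 7, minus strand. Control libraries had 2770, 2527 and 2723 normalised counts and knockdown libraries 1279, 1302 and 1566. The groups did not overlap, and knockdown replicate 3 was the highest of its group. The mean went from 2673 ± 129 to 1382 ± 159, a log2 fold change of -0.96 (SE 0.067, 95% interval -1.10 to -0.81, adjusted p = 1.2e-07), which left 51.5% of the control level. The intervals of IGFBP3 and IGFBP4 did not overlap.

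IGFBP5, a binding protein that attaches to extracellular matrix and a further substrate of PAPPA, moved the other way. The gene (ENSG00000115461.5) spans 216672105 to 216695549 on chromosome 2, minus strand. It had 949, 1013 and 705 normalised counts in control cells and 1905, 1801 and 1485 in knockdown cells. Replicate 3 was the lowest in both groups, yet the lowest knockdown library was above the highest control library. The mean rose from 889 ± 163 to 1730 ± 219, with a log2 fold change of 0.97 (SE 0.11, 95% interval 0.73 to 1.21, adjusted p = 1.1e-05), or 1.95-fold.

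IGFBP6, which prefers IGF2 over IGF1, decreased by less than the fold change cutoff. The gene (ENSG00000167779.9) spans 53097436 to 53102345 on chromosome 12, plus strand. Its 3 control libraries were close together at 1275, 1237 and 1254 normalised counts, and the knockdown libraries had 925, 909 and 795. The groups did not overlap. The mean fell from 1255 ± 19.2 to 876 ± 70.6, a log2 fold change of -0.51 (SE 0.057, adjusted p = 7.8e-06), leaving 70.0% of the control level.

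IGFBP7 binds IGFs only weakly and is also known as a matrix protein around blood vessels. The gene (ENSG00000163453.11) spans 57030773 to 57110385 on chromosome 4, minus strand. Counts were 322, 295 and 286 in control and 296, 317 and 269 in knockdown libraries, and the groups overlapped. No difference was detected, with a log2 fold change of -0.034 (SE 0.087, adjusted p = 0.78) and a 95% interval of -0.22 to 0.15. The strand of the gene matters here, because its exons share 260 bases with POLR2B on the other strand, a gene with a mean of 9171 counts. The column for the other strand held 59.7% to 65.4% of the stranded counts of IGFBP7, against under 1.2% for the other 9 genes.

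IGFBP2, the remaining binding protein with counts, is next to IGFBP5 in the genome, 7.7 kb away on the opposite strand. It had 1623, 1481 and 1487 normalised counts in control and 1267, 1279 and 1431 in knockdown cells. The groups did not overlap, and the difference was small, with a log2 fold change of -0.21 (SE 0.056, adjusted p = 0.0067). The neighbours IGFBP2 and IGFBP5 thus differed in direction. IGFBP1, which lies 18.6 kb from IGFBP3, had 1 count in knockdown replicate 1 and 0 in the other libraries.

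Levels of different genes were compared per length, as TPM, counts per kb of merged exon scaled to the same total in each library. In control cells IGFBP4 stood first with 779 ± 40.0 TPM (SD, n = 3), followed by IGFBP6 with 125 ± 1.07. IGFBP3 (78.2 ± 2.36), STC2 (77.2 ± 4.54) and IGF2R (76.7 ± 17.7) could not be ordered beyond their spread. IGFBP2 had 43.1 ± 1.85 TPM and STC1 38.1 ± 2.11. The low end was formed by IGFBP7 (20.8 ± 1.19), IGFBP5 (18.4 ± 3.57), IGF1R (15.4 ± 1.87) and PAPPA (8.63 ± 1.29), where IGFBP5 did not differ from either of its neighbours beyond their spread. The order depends on the length used. Over 1 canonical transcript per gene, IGFBP2 had 86.9 TPM in control cells, above IGFBP3 (82.1), IGF2R (74.0) and STC2 (55.2), and 76.7 in knockdown cells, beside 75.6 for IGFBP6.

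After knockdown, IGFBP4 remained first on the TPM scale with 255 ± 6.21. STC2 (94.5 ± 12.6), IGFBP6 (87.1 ± 6.25) and IGF2R (84.6 ± 4.33) came next and overlapped. IGFBP3 (40.5 ± 5.06), IGFBP2 (37.5 ± 2.94) and IGFBP5 (35.8 ± 4.19) were within their spread of each other. PAPPA, at 19.2 ± 1.35 TPM over merged exons, was at the level of IGFBP7 (20.4 ± 1.56), and IGF1R was lowest with 12.9 ± 0.295. These ties depend on the length too. Over 1 canonical transcript per gene, knockdown cells had 12.4 ± 0.880 TPM of PAPPA and 16.8 ± 1.24 of IGFBP7. IGFBP3 (43.3), IGFBP2 (76.7) and IGFBP5 (22.7) were then apart.

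The 7 binding protein genes numbered IGFBP1 to IGFBP7 summed to 1065 ± 43.4 TPM in control and 477 ± 2.56 TPM in knockdown cells. IGFBP4 made up 72.6%, 74.2% and 72.8% of this sum in control libraries and 53.0%, 52.9% and 54.8% in knockdown libraries. Its share was thus lower in every knockdown library, although IGFBP4 still supplied most of the sum. IGFBP6 held 11.7% ± 0.384 of the sum in control and 18.3% ± 1.40 in knockdown cells. IGFBP5 held 1.72% ± 0.272 and 7.51% ± 0.917, and IGFBP2 4.05% ± 0.198 and 7.85% ± 0.572. For IGFBP3 the share was 7.36% ± 0.482 and 8.50% ± 1.01. It was slightly higher in every knockdown library (lowest 7.82%) than in any control library (highest 7.73%). The level of IGFBP3 itself fell, but the sum fell by more. IGFBP7 had 1.96% ± 0.0974 and 4.27% ± 0.342 at 20.8 and 20.4 TPM. With the length of 1 canonical transcript per gene in place of merged exons, the share of IGFBP4 was 60.6% in control and 39.9% in knockdown cells, and that of IGFBP2 was 11.3% and 19.6%.

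**Figure D2:**
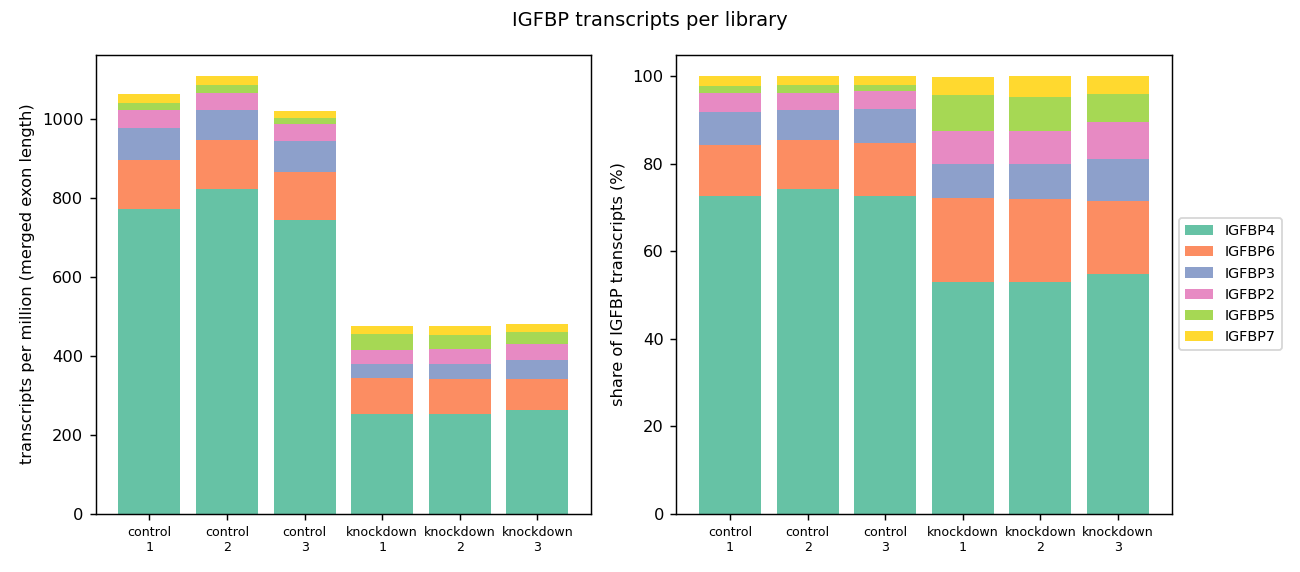
Stacked bars of the binding protein transcripts in each library, on the left in TPM over merged exons and on the right as a percentage of their sum, with 1 colour per gene. The bars reach about 1065 TPM in control and 477 TPM in knockdown libraries, and the IGFBP4 part shrinks from 73.2% to 53.6% of the sum.

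PAPPA showed the largest rise of the axis. The gene (ENSG00000182752.10) spans 116153791 to 116402321 on chromosome 9, plus strand. Control libraries had 689, 858 and 692 normalised counts and knockdown libraries 1812, 1635 and 1550. The groups were well separated, with control replicate 2 the highest of the control libraries. The mean rose from 747 ± 96.8 to 1666 ± 134, with a log2 fold change of 1.16 (SE 0.080, 95% interval 0.99 to 1.34, adjusted p = 9.8e-08), or 2.24-fold. Leaving out single libraries gave log2 fold changes of 1.10 to 1.27, the last without control replicate 2. Its exons share 2450 bases with PAPPA-AS1 on the other strand, which had 0 to 6 counts per library. The other pappalysin gene, PAPPA2, had 0 or 1 count per library and was not tested.

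STC1, a hormone-like inhibitor of PAPPA, fell. The gene (ENSG00000159167.12) spans 23841929 to 23854806 on chromosome 8, minus strand. Its normalised counts were 1183, 1220 and 1126 in control and 697, 804 and 764 in knockdown libraries, without overlap. The mean was 1177 ± 47.1 and 755 ± 54.2, a log2 fold change of -0.64 (SE 0.059, 95% interval -0.77 to -0.52, adjusted p = 1.5e-06). This was 1.56-fold lower and close to the cutoff of 1.5, and without knockdown replicate 1, or with library size alone as the scaling, the log2 fold change was -0.58, under the cutoff.

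STC2, which inhibits PAPPA by a covalent bond, passed the adjusted p but not the fold change cutoff. The gene (ENSG00000113739.10) spans 173314723 to 173328447 on chromosome 5, minus strand. Control libraries had 2891, 3054 and 2822 normalised counts and knockdown libraries 3884, 3844 and 2992. Knockdown replicate 3 lay within the range of the control libraries, so the groups overlapped. The mean was 2922 ± 119 and 3573 ± 504, with a log2 fold change of 0.29 (SE 0.078, 95% interval 0.12 to 0.46, adjusted p = 0.0072). The 2 inhibitor genes thus moved in opposite directions, and their intervals did not overlap.

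Ratios of TPM within a library, given without a test, put the protease beside its substrate and inhibitors. The ratio of IGFBP4 to PAPPA was 98.4, 81.3 and 93.9 in control libraries and 12.1, 13.3 and 14.5 in knockdown libraries. Transcripts of the substrate were thus in large excess over those of the protease in both groups, with a much smaller excess after knockdown. The sum of STC1 and STC2 was 14.4, 12.1 and 13.9 times PAPPA in control and 5.98, 6.76 and 5.80 times PAPPA in knockdown libraries. The ratio of STC2 to STC1 was 2.03 ± 0.0287 in control and 3.89 ± 0.676 in knockdown cells. IGFBP5 relative to IGFBP4 went from 0.0235 ± 0.00356 to 0.140 ± 0.0195. None of these ratios overlapped between groups. RNA levels do not give the amount or activity of the secreted proteins, which were not measured in these files.

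**Figure D3:**
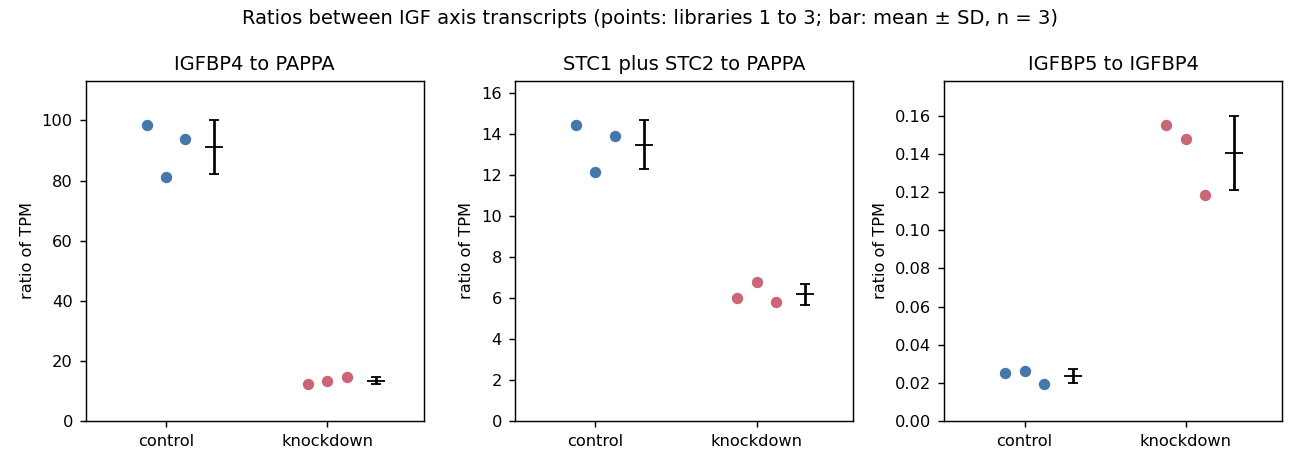
Ratios of TPM within each library (y axes, from 0) for IGFBP4 to PAPPA, for STC1 plus STC2 to PAPPA and for IGFBP5 to IGFBP4, with 1 point per library and the mean ± SD (n = 3). The mean ratio of IGFBP4 to PAPPA is 91.2 in control and 13.3 in knockdown cells, that of STC1 plus STC2 to PAPPA is 13.5 and 6.18, and that of IGFBP5 to IGFBP4 is 0.0235 and 0.140.

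IGF1R, the signalling receptor, was slightly lower after knockdown. The gene (ENSG00000140443.15) spans 98648539 to 98964530 on chromosome 15, plus strand. It had 1555, 1782 and 1460 normalised counts in control and 1383, 1311 and 1343 in knockdown libraries. The groups did not overlap, and control replicate 2 was again the highest. The log2 fold change was -0.25 (SE 0.063, 95% interval -0.38 to -0.11, adjusted p = 0.0055), and it was -0.17 without control replicate 2. The median log2 fold change of the 574 tested genes with transcripts of at least 10 kb was -0.11, against 0.035 for 4650 genes under 2 kb.

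IGF2R, the cation-independent mannose 6-phosphate receptor, did not pass the test. The gene (ENSG00000197081.16) spans 159969082 to 160113507 on chromosome 6, plus strand. Control libraries had 11122, 16077 and 11622 normalised counts and knockdown libraries 14584, 13496 and 14785. Control replicate 2 was above every knockdown library and the other control libraries were below them. The log2 fold change was 0.14 (SE 0.10, 95% interval -0.078 to 0.37, adjusted p = 0.27). Without control replicate 2 it was 0.33, with an adjusted p of 8.7e-07. With all 6 libraries but no filter on low counts the adjusted p was 0.0016. In that setting the adjusted p of every called axis gene fell too, that of IGFBP5 from 1.1e-05 to 5.2e-66. Without control replicate 1 or 3 the adjusted p of IGF2R was 0.74 or 0.61, and under DESeq2 it was 0.55. Whether IGF2R passed the adjusted p thus depended on this library and on the filter. It did not pass the fold change cutoff in any of these cases. The ratio of IGF2R to IGF1R in TPM was 4.96 ± 0.578 in control and 6.54 ± 0.223 in knockdown cells.

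The ligands were near or at 0. IGF1 and INS had 0 counts in all 6 libraries, and IGF2 had 1 count in control replicate 3 and 0 in the others. A count of 0 allows up to 3 counts, or 0.0799 to 0.108 CPM in these libraries, by counting error only. A change of the ligand genes was therefore not detectable at this depth. IGFALS, which codes for the serum partner of the IGF and IGFBP3 complex, had 0 to 2 counts. The antisense genes PAPPA-AS2, IGFBP7-AS1, IRAIN, AIRN and IGF2-AS had at most 2 counts per library.

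Around these 10 genes, 74 genes of the pathway were listed, of which 48 were tested. Of these, 9 were called, 2 higher and 7 lower. The share called is to be read against 11.7% of all genes tested. With the adjusted p alone, 12 were higher and 16 lower, to be read against 48.3% of all genes tested. The median log2 fold change was -0.060. These lists were chosen with earlier results of these data known, so the shares are a description.

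Among 5 tested genes of other proteases reported to cut IGF binding proteins, HTRA1 was called lower and no other was called. Of all genes tested, 11.7% were called. With the adjusted p alone, 3 of the 5 were lower and 0 higher, against 48.3% of all genes tested. Besides HTRA1 these were MMP2 (log2 fold change -0.44, adjusted p = 3.9e-06) and ADAM9 (-0.13, adjusted p = 0.010). HTRA1, a secreted serine protease that carries an IGFBP-like domain itself, had 1534, 1612 and 1317 normalised counts in control and 724, 798 and 872 in knockdown libraries. The groups did not overlap, with a log2 fold change of -0.90 (SE 0.078, adjusted p = 8.6e-07). HTRA1 thus moved in the opposite direction to PAPPA.

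Proteins that share the IGFBP domain without being classical IGF carriers gave 6 called genes of 9 tested, 5 lower and 1 higher, HTRA1 among them. Of all genes tested, 11.7% were called, 6.43% lower and 5.30% higher. CCN3, a matricellular protein, went from 520 ± 102 to 291 ± 33.4 normalised counts (log2 fold change -0.83, SE 0.13). CCN4, a WNT-induced matricellular protein, went from 70.2 ± 7.65 to 38.7 ± 2.25 (-0.85, SE 0.16). The serine protease genes HTRA3 (212 ± 34.3 to 138 ± 6.61, log2 fold change -0.62) and HTRA4 (13.4 ± 0.141 to 4.02 ± 2.11, -1.75) fell as well, the last at very low counts. KAZALD1 was the only gene called higher, from 23.4 ± 5.30 to 37.6 ± 3.10 (0.67, SE 0.22, adjusted p = 0.022). With the adjusted p alone, 3 genes of the list were higher and 6 lower, against 48.3% of all genes tested. CCN1 (log2 fold change 0.49) and CRIM1 (0.37) were among the higher ones, under the fold change cutoff. The median log2 fold change of the list was -0.62.

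No receptor related to the axis was called among 4 tested, against 11.7% of all genes tested. LRP1, which takes up many extracellular ligands, had a log2 fold change of -0.43 (SE 0.14, adjusted p = 0.024), with 3568, 5628 and 3523 normalised counts in control and 3330, 2713 and 3376 in knockdown libraries. Control replicate 2 was far above the rest here too. TMEM219, described as a receptor for IGFBP3, had 1153 ± 54.8 and 1333 ± 70.0 normalised counts (log2 fold change 0.21, adjusted p = 0.0056).

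Of 8 tested adaptor genes that act at IGF1R, none was called, against 11.7% of all genes tested. GRB10, an adaptor that dampens insulin and IGF signalling, had 1322 ± 72.8 and 1842 ± 110 normalised counts (log2 fold change 0.48, SE 0.054, adjusted p = 9.2e-06). IRS1, the docking protein of the receptor, had 641 ± 40.0 and 783 ± 22.8 (0.29, SE 0.059, adjusted p = 0.0014). Both rose by less than the fold change cutoff.

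In the PI3K-AKT-mTOR list 1 of 16 tested genes was called, against 11.7% of all genes tested. PIK3CA, the catalytic subunit p110-alpha, had 2354, 2630 and 2363 normalised counts in control and 1280, 1334 and 1349 in knockdown libraries. It fell without overlap by 0.89 on the log2 scale (SE 0.050, adjusted p = 1.8e-08), to 53.9% of the control level. With the adjusted p alone, 4 genes of the list were higher and 3 lower, against 48.3% of all genes tested. The list's median was -0.015.

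The FOXO factors, which AKT keeps out of the nucleus, had 1 called gene of 4 tested, against 11.7% of all genes tested. FOXO1 fell from 325 ± 66.1 to 181 ± 26.7 normalised counts (log2 fold change -0.85, SE 0.14, adjusted p = 0.00031). Of the RNA-binding proteins named for IGF2 mRNA, 2 were tested and IGF2BP3 rose, from 55.6 ± 5.54 to 118 ± 8.42 (1.09, SE 0.14, adjusted p = 2.6e-05). It did so in cells in which IGF2 itself had 1 count in all.

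**Figure D4:**
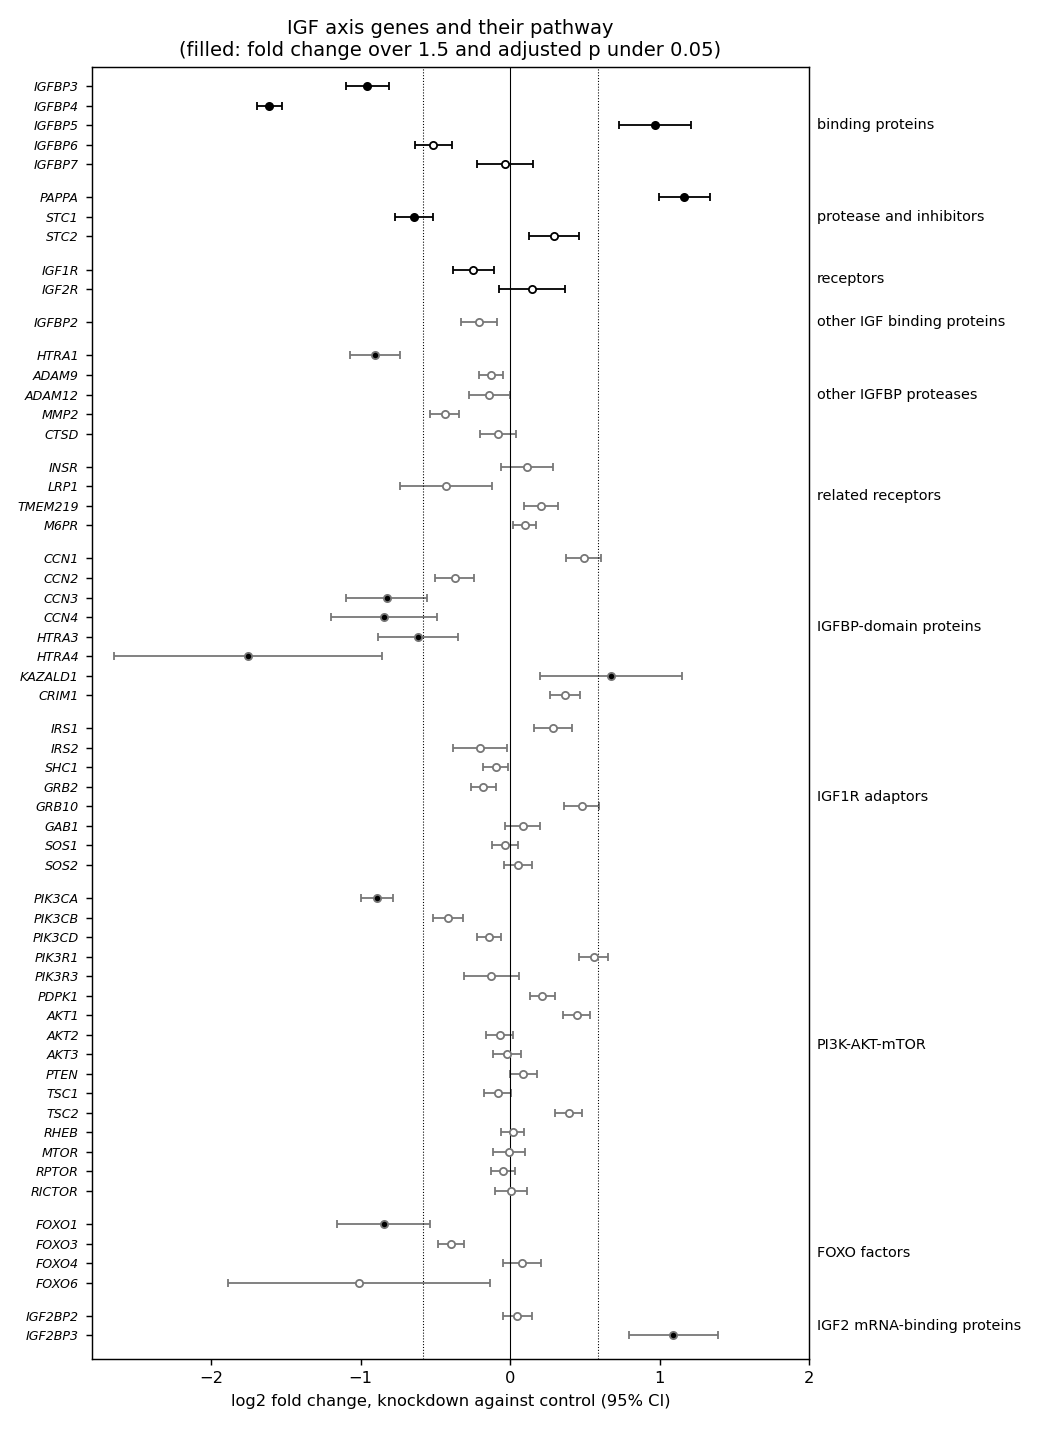
Log2 fold changes of knockdown against control (x axis) with 95% intervals for the 10 IGF axis genes and the tested genes of the pathway lists, grouped by list. Filled points passed the adjusted p and the fold change cutoff, dotted lines mark a fold change of 1.5, and IGFBP4 at -1.61 and PAPPA at 1.16 lie farthest from 0 among the 10.

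The genes whose log2 CPM followed IGFBP4 most closely over the 6 libraries were VAT1L and SAR1A, with a Pearson r of 0.9999 and 0.9998. Those closest to PAPPA were STYX and STK35, with an r of 0.998 each. With 3 libraries at each of 2 levels, such values reflect the difference between groups and describe these libraries only.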

How the data were processed

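Poly-A RNA of 12Z cells was sequenced in 6 libraries, 3 per group. The study describes a TruSeq kit, whereas the sample labels name a NEB library. The authors aligned read pairs with STAR (2.7.6a in the submitters' processing notes, which also name SAMtools 1.10) to GRCh38.p13 with GENCODE v36, kept reads mapping to a single place, and deposited the STAR counts per gene, not normalised. Genes with near-identical copies can therefore be counted incompletely. Of the 3 count columns, the one for the strand opposite to read 1 was used, which held 94.0% of stranded counts.

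Counts were filtered with filterByExpr (minimum count 10), scaled by TMM (factors 0.968 to 0.984 in control and 1.02 to 1.03 in knockdown libraries) and compared in edgeR 4.0.16 under R 4.3.3 by its two-sided quasi-likelihood test. The model held condition alone, and p-values of 15155 genes were adjusted by the Benjamini-Hochberg method. The cutoffs were those of the study, which used DESeq2. The fit was tested on simulated data. TPM used exon lengths of GENCODE v44, whose gene IDs matched 60419 of 60660 genes, holding 99.9% of counts. Promoters are from RefSeq and siRNA strands from the study's oligo list. Alternatives were DESeq2 1.42.0, other scalings, filters and cutoffs, the unstranded column, a replicate block, each library left out and, added after the data were seen, canonical transcript lengths.

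The 10 genes and all gene lists were chosen with earlier results of these data known. Named were the 10 genes, LINC01133, IGF1 and IGF2, every called gene of the pathway lists, in a list without one the 2 with the highest absolute log2 fold change, and for IGFBP4 and PAPPA the 2 genes with the highest correlation. Further genes at or near 0 counts, IGFBP2 and the lineage markers are named to complete their lists.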

Additional observations from a re-analysis of the deposited data

How the results depend on the processing

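IGFBP3, IGFBP4, IGFBP5, IGFBP6, PAPPA, STC2, IGF1R and IGF2R kept their direction and their call, which needs both cutoffs, in all 13 alternatives run for each, and STC1 in 11. IGF2R, not called in any of them, passed the adjusted p alone without control replicate 2 (8.7e-07) and with no filter (0.0016), against 0.27. Leaving out the filter also lowered the adjusted p of every called axis gene. The cause of the changes below was not tested, except where the alternative itself sets it. With the adjusted p alone, 8 axis genes were called, 5 of them lower, and 28 pathway genes, 12 higher and 16 lower, of 7315 genes in all. Under glmTreat against a fold change of 1.5, 4 axis genes were called, 2 higher and 2 lower, and 3 pathway genes were called, 1 higher and 2 lower, of 578 in all against 1778. DESeq2 and the unstranded column each left 1 pathway gene called higher. Leaving out single libraries gave 4 to 5 axis genes called, 2 to 3 of them lower, and 1 to 2 pathway genes higher. STC1 lost its call without knockdown replicate 1 and with library size alone (log2 fold change -0.58 in both, adjusted p 1.8e-05 and 4.3e-06). IGFBP7 turned to 0.028 with library size alone, and ranged from -0.086 to 0.024 without single libraries. The IGFBP4 share of binding protein transcripts in knockdown cells was 54.9% with the unstranded column. With canonical lengths, chosen after seeing the data, it was 60.6% in control and 39.9% in knockdown cells, and that of IGFBP2 11.3% and 19.6%.

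Deviations of same-numbered libraries from their group means had a Pearson r of -0.015, 0.0049 and 0.057 over 15155 genes. Not every sample correlated best with its own number. With 3 libraries per group these values cannot decide whether the samples were paired, and the labels do not say. The replicate block gave 5 axis genes called, 2 higher and 3 lower, 10 pathway genes, and 1747 genes in all, and changed no call of an axis gene.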

Other observations

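Some genes of the lists had too few counts to be tested but had libraries that did not overlap between groups. They are named here after their values were seen, out of all untested genes of the pathway lists (74 genes listed, 48 tested). No test was run on them, and whether counting error alone separated them was not tested. Of all genes tested, 57.3% did not overlap between groups. MMP3, a matrix metalloprotease that also cuts IGF binding proteins, had 2.84, 3.38 and 2.07 normalised counts in control and 6.78, 12.6 and 9.08 in knockdown libraries. GRB14, an adaptor that inhibits the insulin receptor, had 6.63, 6.76 and 5.18 in control and 0, 2.91 and 1.13 in knockdown libraries. PIK3R2, a regulatory subunit of PI3K, had 6.63, 2.25 and 7.25 in control and 9.32, 13.6 and 11.3 in knockdown libraries.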
